A study of Yarrowia lipolytica with 4 samples.

Results

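The genes described here encode the proteins of the cytosolic ribosome of Yarrowia lipolytica, an oil-storing yeast. They were taken by their annotation: protein-coding genes of the transcript table whose description names a ribosomal protein, leaving out descriptions with mitochondrial, MRP, kinase, methyltransferase, acetyltransferase, biogenesis, processing or chaperone. That gave 83 of the 8381 features measured, 49 of the large (60S) and 34 of the small (40S) subunit. Messenger RNA was sequenced from 2 strains, both derived from the laboratory strain PO1f and both carrying a disrupted KU70 (ku70Δ::tc), a gene of DNA end joining. The control strain carried that disruption alone; the titles label it WT, and parent is the word used here. In the deletion strain, ku70Δ::tc sur2Δ::LEU2, LEU2 stood in place of SUR2, the gene of the C4-hydroxylase of sphingoid bases. The strains therefore differed in LEU2 as well as in SUR2, and those differences cannot be told apart. Cells of both strains were harvested from rich YPD medium at an OD600 of 0.8 and 28 °C. Of the 2 libraries of each strain, 1 stood in a table of transcripts and 1 in a table of genes.

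A library is named here by its strain and table, since no label ties it to a replicate number. Where values are given below, those of the transcript table come first within each strain. Depth was 16585818 and 13972149 counts for the parent and 16698719 and 8765729 counts for the sur2Δ strain. SUR2 had 1402 and 1319 counts in the parent and 0 counts in both deletion libraries. KU70 (YALI0_C08701g), disrupted in both strains, kept 89 and 23 counts in parent cells and 52 and 14 in sur2Δ cells. The limit that a count of 0 allows was 3 counts, or 0.175 to 0.307 CPM, the count relative to the library's scaled total. Libraries of the same strain differed well beyond sampling noise: chi-square over its degrees of freedom was 144.8 between the parent libraries and 292.8 between the deletion libraries. Whether they came from separate cultures is not labelled, so the p-values cover the spread of these libraries alone, which may be technical.

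A ribosome is built from a small subunit, which reads the messenger RNA, and a large subunit, which joins amino acids. Each consists of ribosomal RNA and a fixed set of proteins, nearly all present in a single copy per ribosome. The stalk of the large subunit is an exception, with several copies of the acidic proteins P1 and P2 held by P0, and it receives the translation factors that hydrolyse GTP. In Saccharomyces cerevisiae the ribosomal protein genes are transcribed in concert, at a rate that follows growth and nutrients through TOR and protein kinase A, and many of them contain introns.

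The annotation was checked against the relative in S. cerevisiae that the descriptions give. Apart from 2 genes these were cytosolic ribosomal proteins, ASC1 included, the RACK1 protein of the small subunit head. The exceptions were YALI0_D08470g, whose relative is RSM7 of the mitochondrial small subunit, and YALI0_B09779g, whose relative is RLP24, an assembly factor that holds the place of RPL24 on immature large subunits. They stay in the counts below, since the annotation puts them there, and are called RSM7 and RLP24. The genes carry 80 different names, because RPP1, RPS22 and RPL33 each name 2 genes. The relatives of RPS1 and RPS12, YALI0_F05676g and YALI0_F06160g, are described in other words and were not taken. The gene YALI0_F30011g, described by its likeness to an S25 protein of Neurospora crassa and distinct from the relative of RPS25, is called S25-like. The other names below are those of the S. cerevisiae relatives.

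Ribosomal protein messages made up a large share of each library, and the share was smaller in both deletion libraries. They held 17.0% and 19.9% of the counts in parent cells and 12.3% and 7.11% in sur2Δ cells. The 95% Wilson intervals of these shares were at most 0.0209 percentage points to either side and cover counting error only. The large subunit genes held 10.3% and 12.0% in parent cells and 7.64% and 4.39% in sur2Δ cells. The small subunit genes held 6.69% and 7.94% in parent cells and 4.64% and 2.72% in sur2Δ cells. The groups did not overlap for either subunit, and the deletion libraries were farther apart than the parent libraries. In these bulk samples, fewer cells that make a message and less of it per cell cannot be told apart. The summed CPM of the large over that of the small subunit was 1.533 and 1.509 in parent cells and 1.648 and 1.616 in sur2Δ cells.

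**Figure D1:**
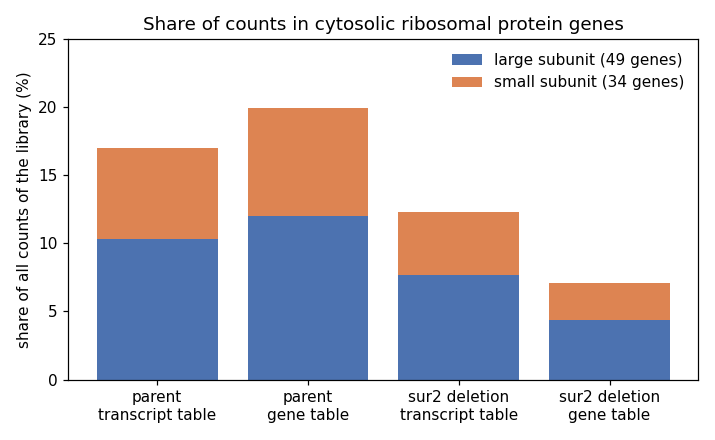
Share of all counts of a library, in percent, that fell on the 49 large (blue) and 34 small (orange) subunit genes, stacked, with 1 bar per library. The bars stand at 17.0% and 19.9% in the parent and at 12.3% and 7.11% in the deletion strain, and no error bar is drawn because each bar is 1 library.

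Per length, most of these genes stood close to each other at the top of the transcriptome. Levels per length are given as TPM, counts per length relative to the library's total, as the authors deposited them. Of the 100 tested genes of highest mean TPM, 70 were ribosomal protein genes, and these genes together held 36.1% and 41.0% of the TPM in parent cells and 28.3% and 19.2% in sur2Δ cells. The 45 large subunit genes with a mean of at least 1000 TPM had medians of 4132 and 4843 TPM in parent cells and 3518 and 1990 TPM in sur2Δ cells, and spanned 6.63-fold from lowest to highest mean. The 31 such small subunit genes had medians of 3991 and 4977 TPM in parent cells and 3013 and 2098 TPM in sur2Δ cells, and spanned 9.99-fold. The order of the genes was much alike in every library. Across the 82 genes with counts, Spearman's rho of TPM was 0.890 between the parent libraries, 0.911 between the deletion libraries, 0.889 between the strains among transcripts and 0.920 among genes. These are correlations across genes, which are not independent replicates and share their length and annotation.

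Levels per length reached their highest values in a few genes of each subunit. In the large subunit these were RPL43 (YALI0_E34573g), at 10432 and 14349 TPM in parent cells and 9058 and 8755 TPM in sur2Δ cells, RPL40, RPL35 and RPL20. In the small subunit the highest was RPS21 (YALI0_D13794g), which binds beside RPS0 on the back of the subunit, at 12921 and 13627 TPM in parent cells and 9131 and 5157 TPM in sur2Δ cells, followed by RPS31. The mean TPM of RPL43 over the 4 libraries was 10649 and that of RPS21 was 10209, and neither stands apart from the other beyond its spread over libraries. At the low end of each subunit stood RPL38, with a mean of 244 TPM, and the second RPS22 gene YALI0_F25399g, with 72.3 TPM. In mice, RPL38 is known for its part in the translation of Hox messages.

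**Figure D2:**
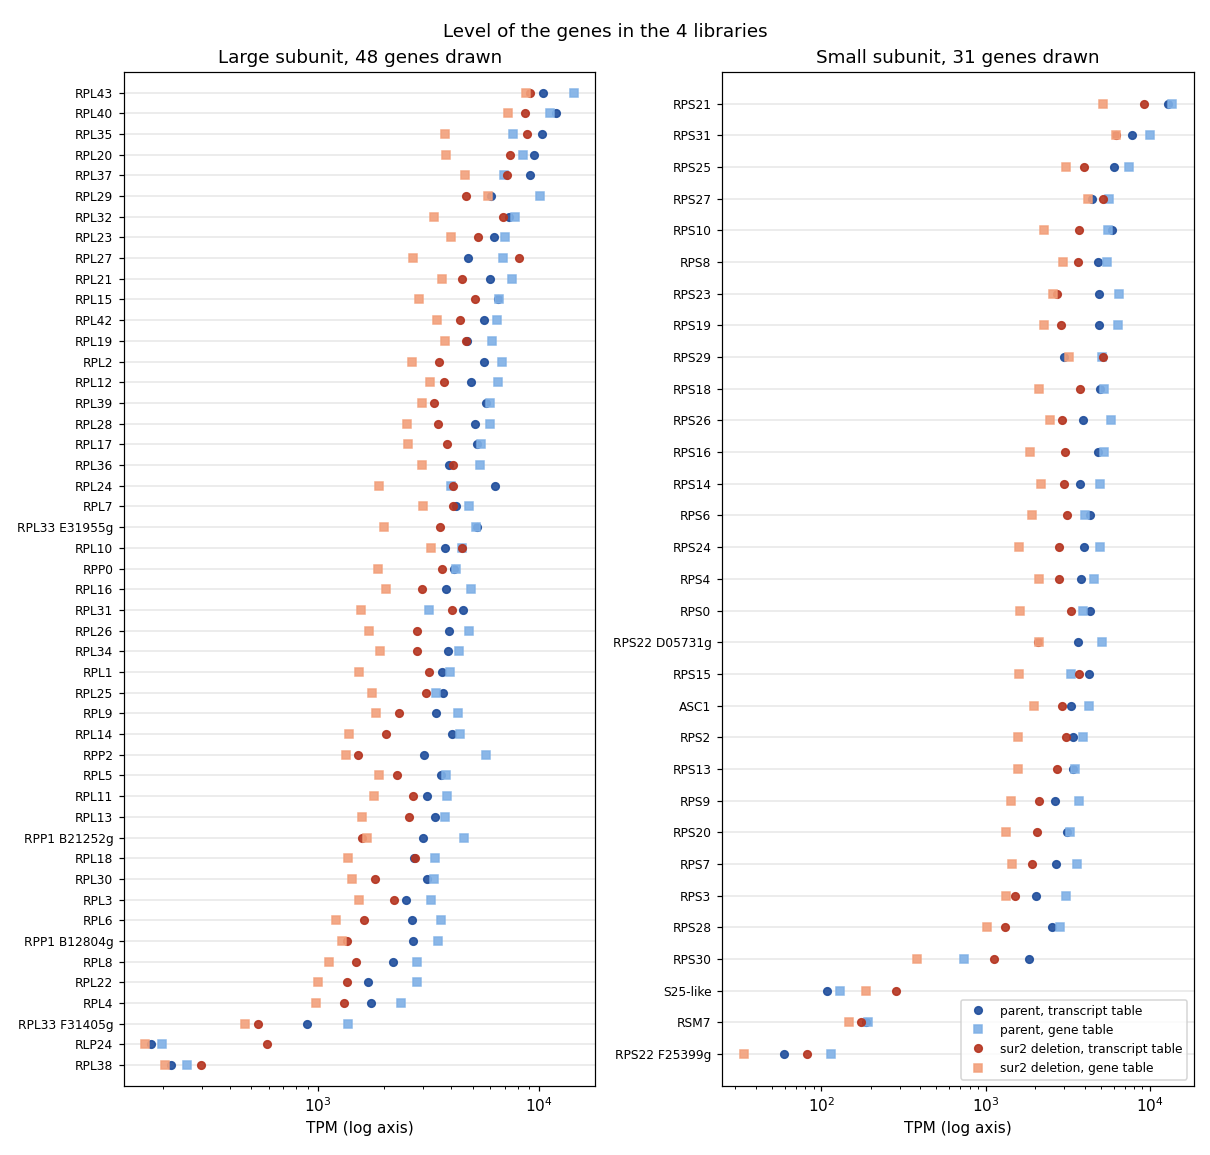
Deposited TPM (log axis) of the ribosomal protein genes with counts, apart from 3 that are not drawn, ordered by mean TPM within the large and the small subunit, with 1 point per library (blue parent, red deletion; circles for the transcript table and lighter squares for the gene table). All but 6 of the genes drawn have a mean of at least 1000 TPM, and the deletion points lie to the left of the parent points for most genes.

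Short genes limit what a level per length can say here. The lengths divided by were worked out from the deposited counts and TPM. They were shorter than the spliced messages by 201.4 to 227.8 bases in long genes, depending on the library, and by less in the shortest. In the transcript table's parent library, 10 of the ribosomal protein genes were left with under 100 bases. The length used for RPL39 (YALI0_D05697g), which lines the exit of the peptide tunnel, was 3.9 bases in that library and 1.8 bases in the gene table's parent library. For RPS29 it was 7.6 and 3.8 bases, for RPS30 13.1 and 7.2 bases and for RPS28 25.8 and 16.1 bases. For RPL38 it was 29.7 and 19.0 bases, for RPS21 67.6 and 50.7 bases and for RPL43 81.1 and 63.0 bases. TPM of these genes moves with that length, and so does the rank of RPS21 and RPL43 above, so their strain comparisons below use counts. Whether counts of such short genes also move with the length of the sequenced fragments was not tested. RPL41 (YALI0_A09933g, 78 bases), which encodes the smallest ribosomal protein, had 0 counts in all 4 libraries and failed the filter on low counts. It lies on chromosome A at bases 1005917 to 1005994, 1654 bases after RPL35 on the same strand. The other 82 genes passed that filter and were tested.

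Between the strains, ribosomal protein genes of both subunits were lower in the deletion libraries by similar amounts, and none of them passed the edgeR test adjusted over 6051 genes. In that fit the adjusted p threshold of 0.05 was passed by 0 of the 82 genes as lower and by 0 as higher. The background was 0.248% of all tested genes lower (15 genes) and 0.992% higher (60 genes). The median log2 fold change was -1.14 for the 48 large subunit genes tested, with quartiles of -1.33 and -0.95. It was -1.21 for the 34 small subunit genes, with quartiles of -1.34 and -1.05, against 0.03 over all tested genes. The log2 fold change was below 0 for 80 of the 82 genes, where 48.0% of all tested genes were below 0. It was below -1 for 57 genes, 31 of the large and 26 of the small subunit, where 5.40% of all tested genes were.

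Calls differed between readings of the same counts. By unadjusted p under 0.05 with edgeR, 41 genes were lower, 23 of the large and 18 of the small subunit, against a background of 4.03%, and 0 were higher, against 8.40%. With DESeq2 in place of edgeR, 26 genes passed an adjusted p of 0.05 as lower, 13 in each subunit, against 2.05% of all tested genes, and 0 as higher, against 4.33%. Without the transcript table's deletion library, edgeR called 26 genes lower, against 3.90%, and 14 of them were among the 26 that DESeq2 called. That fit leaves 1 deletion library, which is assumed to vary as the 2 parent libraries do, and it compares the pair of strains through the library with the larger difference. Leaving out any of the other 3 libraries gave 0 calls among these genes. Over all tested genes those fits called 0.826% lower and 2.53% higher without the deletion library of the gene table, and 0% in either direction without either parent library. In the remaining settings 0 of the 82 genes were called as well. There, 0.545% of all tested genes were lower and 1.85% higher with the table as a term, and 0.281% and 1.64% on library totals. With limma it was 0.364% and 2.58% at a pseudocount of 1 TPM and 0.380% and 2.99% at 0.1 TPM. It was 0.251% and 1.25% with no filter, 0.248% and 1.02% with RLE factors, and 0.248% and 0.992% with TMM factors from the other genes. In 74 of the 82 genes both deletion libraries were lower than both parent libraries, in CPM, which held for 20.2% of all tested genes. The reverse held for 0 of the 82 genes and for 22.1% of all tested genes.

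**Figure D3:**
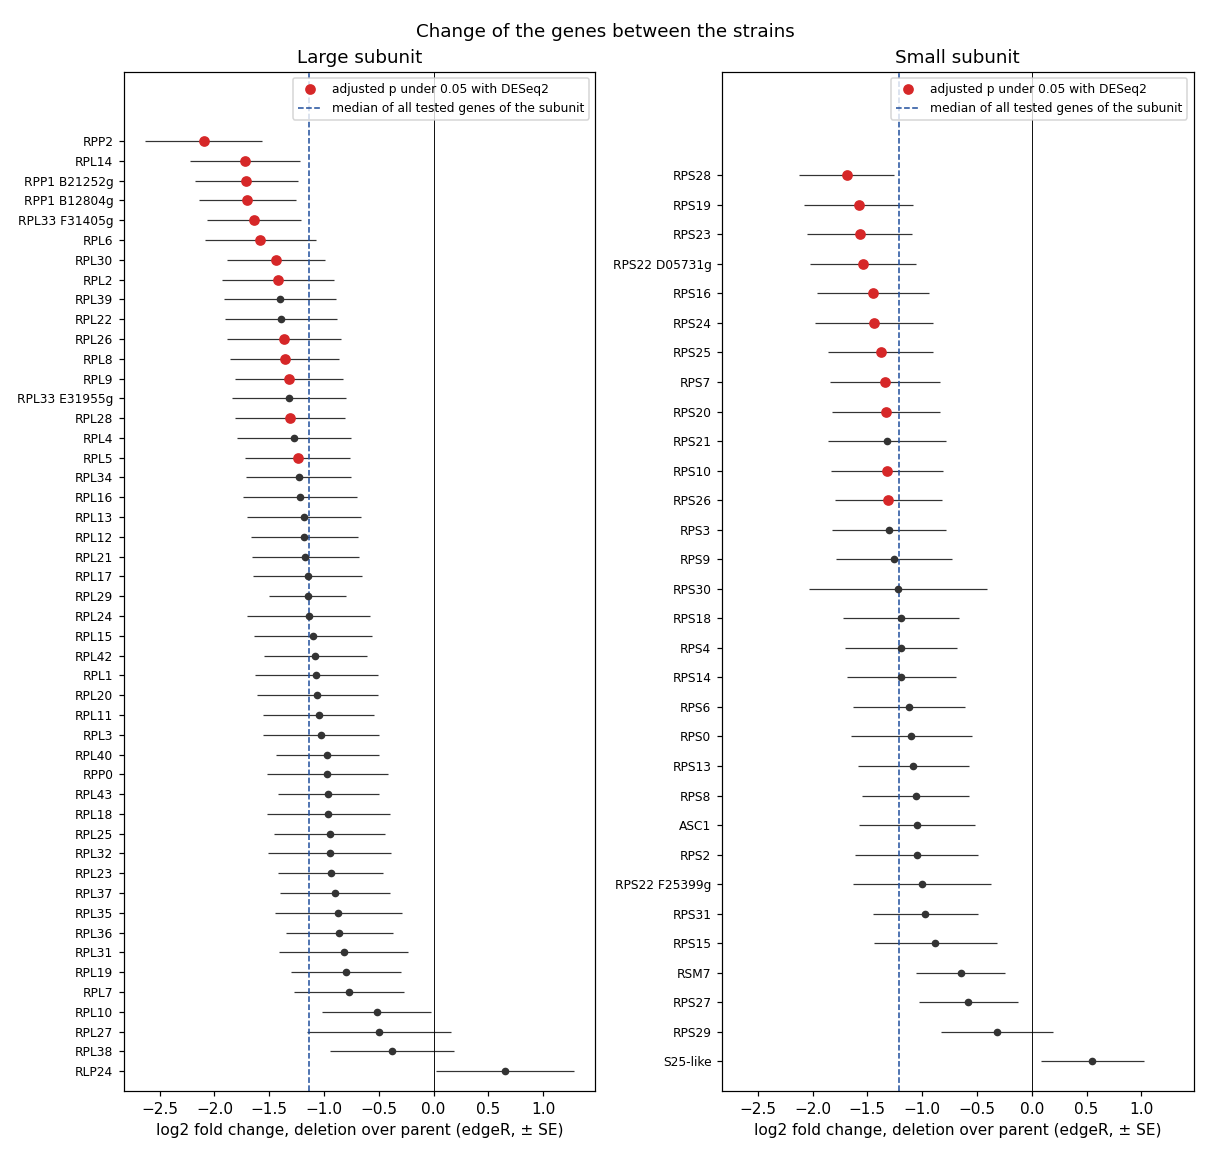
Log2 fold change of the deletion over the parent strain for the 82 tested genes apart from 3 that are not drawn (edgeR, bars are ± 1 standard error, 2 libraries per strain), large subunit on the left and small subunit on the right, with the subunit median dashed. Red points passed an adjusted p of 0.05 with DESeq2 and none passed it with edgeR; RLP24 and S25-like are to the right of 0.

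The stalk proteins P1 and P2 had the most negative fold changes of the large subunit together with RPL14. RPP2 (YALI0_F05808g, chromosome F, bases 864118 to 864711, plus strand) encodes P2 and had 644 and 1414 CPM in parent cells and 288 and 192 CPM in sur2Δ cells. Its means were 1029 ± 544 and 240 ± 67.7 CPM (SD, n = 2), a log2 fold change of -2.10 ± 0.53 (SE), with an edgeR adjusted p of 0.136. Both RPP1 genes, which encode P1, were lower in both deletion libraries as well. YALI0_B21252g (chromosome B, bases 2787664 to 2788391) had 629 and 1095 CPM in parent cells and 293 and 233 CPM in sur2Δ cells, a log2 fold change of -1.71 ± 0.47. YALI0_B12804g (chromosome B, bases 1719410 to 1720099) had 524 and 772 CPM in parent cells and 234 and 165 CPM in sur2Δ cells, a log2 fold change of -1.70 ± 0.44. The edgeR adjusted p was 0.166 and 0.150 for these genes. With DESeq2 the adjusted p was 0.000437 for RPP2, 0.0022 for YALI0_B21252g and 0.00171 for YALI0_B12804g; over all alternatives run it reached 0.833, 0.833 and 0.825.

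P0, the protein that anchors P1 and P2 to the ribosomal RNA, was closer between the strains. RPP0 (YALI0_B14146g, chromosome B, bases 1892232 to 1893176, minus strand) had 5198 and 7035 CPM in parent cells and 4374 and 1875 CPM in sur2Δ cells. Its log2 fold change was -0.97 ± 0.55, with an edgeR adjusted p of 0.558. The summed CPM of the 3 genes of P1 and P2 over that of P0 was 0.346 and 0.466 in parent cells and 0.186 and 0.315 in sur2Δ cells. The ratio was lower in the deletion library in each table, and the groups did not overlap, but 0.315 and 0.346 lie closer together than the libraries of either strain. Per length the ratio was 2.106 and 3.288 in parent cells and 1.217 and 2.286 in sur2Δ cells, and there the groups overlap.

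**Figure D4:**
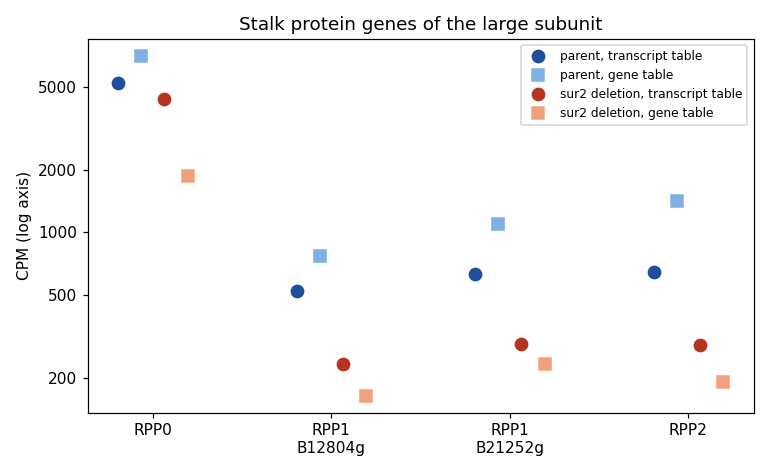
CPM (log axis) of the stalk genes RPP0, RPP1 (both genes) and RPP2 in each library, blue for the parent and red for the deletion strain, circles for the transcript table and lighter squares for the gene table. RPP2 goes from 644 and 1414 CPM in the parent to 288 and 192 CPM in the deletion strain, and RPP0 from 5198 and 7035 to 4374 and 1875 CPM.

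Among the other large subunit proteins, RPL14 and the second RPL33 gene were the farthest below the parent. RPL14 (YALI0_E00550g, chromosome E, bases 55856 to 56438) had 1498 and 2006 CPM in parent cells and 694 and 371 CPM in sur2Δ cells, a log2 fold change of -1.72 ± 0.50 with an edgeR adjusted p of 0.193. RPL33 YALI0_F31405g had 187 and 329 CPM in parent cells and 99.8 and 65.7 CPM in sur2Δ cells, a log2 fold change of -1.64 ± 0.43 with an edgeR adjusted p of 0.156. The groups did not overlap for either gene.

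The large subunit genes were also read by where their products sit. The genes of this paragraph, and of that on the path of the messenger RNA, were chosen by textbook role after their values were seen. RPL5 and RPL11 bind the 5S ribosomal RNA and had log2 fold changes of -1.24 ± 0.48 and -1.05 ± 0.51. RPL2, RPL3, RPL4 and RPL10 reach toward the peptidyl transferase centre, where peptide bonds form, and their log2 fold changes were -1.42, -1.03, -1.27 and -0.52. RPL25, RPL35 and RPL39 surround the exit of the peptide tunnel and had log2 fold changes of -0.95, -0.87 and -1.40. RPL39 is among the short genes, with the limit given above for them. RPL30, known in S. cerevisiae for holding back the splicing of its own message, had 685 and 847 CPM in parent cells and 354 and 210 CPM in sur2Δ cells, a log2 fold change of -1.44 ± 0.45. RPL2, RPL30 and RPL39 were below the lower quartile of the subunit and RPL10 and RPL35 above its upper quartile, and the sites near the peptidyl transferase centre and the tunnel exit each held genes on either side of the subunit's median.

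In the small subunit the most negative fold change was that of RPS28 (YALI0_C05148g, chromosome C, bases 660098 to 660776), which lies where the messenger RNA leaves the subunit. It had 110 and 106 CPM in parent cells and 44.7 and 22.0 CPM in sur2Δ cells, a log2 fold change of -1.69 ± 0.43 with an edgeR adjusted p of 0.140. Its parent libraries differed by less than its deletion libraries. RPS28 is among the short genes described above, so its rank carries the limit given there. RPS19 (YALI0_B20504g), a protein of the subunit head, had 2022 and 3286 CPM in parent cells and 1087 and 686 CPM in sur2Δ cells, a log2 fold change of -1.58 ± 0.50. RPS23 (YALI0_A20746g), a protein of the decoding centre, had 1960 and 3243 CPM in parent cells and 1005 and 748 CPM in sur2Δ cells, a log2 fold change of -1.57 ± 0.48. RPS22 (YALI0_D05731g) had 1178 and 2021 CPM in parent cells and 619 and 485 CPM in sur2Δ cells, a log2 fold change of -1.54 ± 0.48. In these 4 genes both deletion libraries were below both parent libraries, and the edgeR adjusted p was 0.140 to 0.232.

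Along the path of the messenger RNA, RPS3 and RPS2 at the entry had log2 fold changes of -1.30 ± 0.52 and -1.05 ± 0.56. At the exit, RPS14 and RPS26 had -1.19 ± 0.50 and -1.31 ± 0.49. RPS6, the protein known as a target of kinases of the TOR pathway, had 3877 and 4745 CPM in parent cells and 2645 and 1332 CPM in sur2Δ cells, a log2 fold change of -1.12 ± 0.51. ASC1 (YALI0_E20031g), a signalling scaffold on the subunit head, had 4307 and 7434 CPM in parent cells and 3634 and 2036 CPM in sur2Δ cells, a log2 fold change of -1.05 ± 0.53. The 2 relatives that the annotation rule did not take lay in the same range: RPS1 at -1.26 ± 0.53 and RPS12 at -1.47 ± 0.48.

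A pair of ribosomal proteins is made as a fusion with ubiquitin, the small protein tag that is cut off after translation. RPL40 (YALI0_F08745g) had 3730 and 4262 CPM in parent cells and 2462 and 1606 CPM in sur2Δ cells. RPS31 (YALI0_F09790g) had 3328 and 5314 CPM in parent cells and 2450 and 1951 CPM in sur2Δ cells. Both had a log2 fold change of -0.97, with standard errors of 0.47 and 0.48 and edgeR adjusted p of 0.467 and 0.483. Both were among the 4 highest of their subunit per length, and both lay on the smaller side of their subunit's median change.

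Where a protein name had 2 genes, the pair could be uneven or nearly even. The second RPS22 gene, YALI0_F25399g, had 328 and 535 counts in parent cells and 415 and 76 counts in sur2Δ cells, and its CPM was 0.016 to 0.039 of that of YALI0_D05731g in the 4 libraries. It overlaps the small nucleolar RNA gene snR44. The second RPL33 gene stood at 0.170 and 0.265 of the CPM of YALI0_E31955g in the parent and at 0.151 and 0.236 in the deletion strain, so the libraries of a table were closer than those of a strain. The RPP1 genes were nearly even, with YALI0_B21252g at 1.199 and 1.418 of YALI0_B12804g in the parent and at 1.252 and 1.416 in the deletion strain. How reads shared by near-identical genes were counted is not given in the sources used here, so the split within a pair is uncertain.

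In 8 of the 82 genes the libraries of the strains overlapped. Their log2 fold changes were positive for RLP24 and S25-like. RLP24 had 110 and 158 CPM in parent cells and 340 and 78.7 CPM in sur2Δ cells, a log2 fold change of 0.65 ± 0.63 with an edgeR adjusted p of 0.781. Its deletion libraries lay on either side of the parent libraries, and the value was -0.76 with the transcript table's deletion library left out. S25-like had 18.6 and 24.4 CPM in parent cells and 42.5 and 20.4 CPM in sur2Δ cells, a log2 fold change of 0.55 ± 0.47, and -0.08 without that same library.

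The other 6 of those 8 genes were RPL10, RPL27, RPL38, RPS29, RPS30 and the second RPS22 gene. RPL27, RPS29, RPL38, RLP24 and RPL18 lie on chromosome B between bases 790091 and 1522189. In the transcript table the log2 ratio of deletion over parent was -0.07 for RPL18. It was -0.54 for RPL42 and -1.16 for RPP1 YALI0_B12804g, on either side. It was 0.79 to 0.995 for mitochondrial ribosomal protein genes numbered between RPL27 and RPL38. Assembly genes YALI0_B10065g and YALI0_B10560g were at 2.351 and 1.828. All were negative in the gene table. The cause was not tested. RPL10, which joins the large subunit late, in the cytoplasm, had 2941 and 4616 CPM in parent cells and 3307 and 1979 CPM in sur2Δ cells, a log2 fold change of -0.52 ± 0.50. RPL27 (YALI0_B05896g) had 1738 and 3089 CPM in parent cells and 2705 and 714 CPM in sur2Δ cells. Within the tables its log2 ratio of deletion over parent was 0.64 (transcripts) and -2.11 (genes), and the fitted value of -0.50 ± 0.66 became 0.16 without the deletion library of the gene table. RPL38, with 187 and 134 counts in the parent, had a fitted value of -0.38 ± 0.57, and RPS29 had -0.32 ± 0.51. Within the tables the log2 ratios of RPL38 were 0.11 (transcripts) and -1.12 (genes). Those of RPS29 were 0.38 and -1.4. Without the deletion library of the gene table the fitted values of RPL38 and RPS29 were 0.09 and 0.25. RPS30 had 40.8 and 12.3 CPM in parent cells and 18.9 and 3.79 CPM in sur2Δ cells, and the second RPS22 gene had 19.1 and 45.3 and then 24.2 and 7.78 CPM. RSM7, the mitochondrial protein, did not overlap between the strains: it had 255 and 348 CPM in parent cells and 224 and 159 CPM in sur2Δ cells, a log2 fold change of -0.65 ± 0.41.

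The size of the difference was not the same in the tables, each of which held 1 library per strain. Of the 82 genes, 75 had a deletion to parent ratio below 1 in the table of transcripts, where 50.7% of all tested genes did, and the median log2 ratio was -0.50 for the large and -0.51 for the small subunit. In the gene table the ratio was below 1 for 82 genes, where 47.5% of all tested genes did, and the medians were -1.91 and -2.02. Over all tested genes the medians were -0.01 and 0.04. Within a strain, the gene table's library was above the transcript table's by a median log2 ratio of 0.53 in the parent and below it, at -0.88, in the deletion strain, while all tested genes were at -0.04 and -0.03. The table, and with it the library, moves with the size of the result, and its part in it was not tested. The genes that differed more in one table tended to differ more in the other, with a Spearman's rho of the log2 ratios of 0.512 across the 82 genes and of 0.274 across all tested genes.

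Other genes of the translation apparatus are given for comparison. The 52 mitochondrial ribosomal protein genes had a median log2 fold change of -0.63, with -0.24 in the transcript table and -1.04 in the other. Of them, 48 had a log2 fold change below 0 and 40 had both deletion libraries below both parent libraries, beside the 48.0% and 20.2% of all tested genes given above. The 28 ribosome assembly genes had a median of 0.27, with 1.07 among transcripts and -0.53 among genes. That list, made from the annotation, includes the relative of IFH1 described below, which had its highest fold change. Of the 28 genes, 8 were below 0 and 1 had both deletion libraries below both parent libraries. The 48 translation factor genes had a median of -0.08, with 0.49 and -0.69, and 30 were below 0 and 10 had both deletion libraries below both parent libraries. In each of these 3 lists edgeR called 0 genes in either direction, against 0.248% lower and 0.992% higher over all tested genes. DESeq2 called 1 translation factor gene lower, against 2.05% of all tested genes, and 1 assembly gene, IFH1, higher, against 4.33%. The fits without 1 deletion library leave 1 library in that strain, and their calls in these lists are not given. The medians of all 3 lists were more negative in the gene table, as were those of the cytosolic ribosomal proteins, and those of the latter were the lowest of the 4 lists in both tables. No test was made of the differences between lists.

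**Figure D5:**
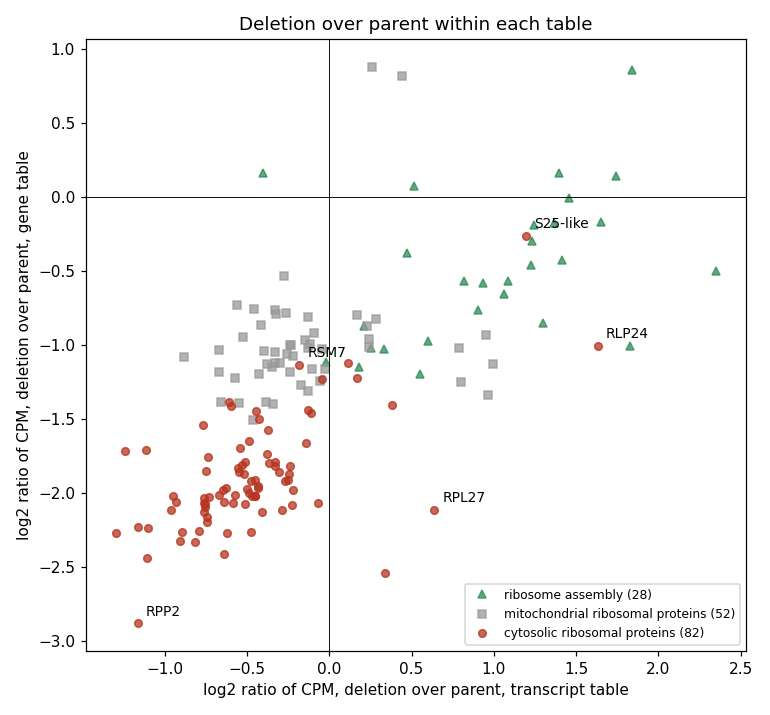
Log2 ratio of deletion over parent CPM in the transcript table (x axis) against that in the gene table (y axis), with 1 point per gene: cytosolic ribosomal proteins (red circles), mitochondrial ribosomal proteins (grey squares) and ribosome assembly genes (green triangles). The cytosolic ribosomal proteins centre at -0.51 and -1.97, and the ribosome assembly genes at 1.07 and -0.53.

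Proteins that work on the ribosome or set the level of its genes were taken as 12 genes by name, and edgeR called 0 of them in either direction, against 0.248% lower and 0.992% higher over all tested genes. IFH1 was called higher with DESeq2, as were 4.33% of all tested genes. Their median log2 fold change was -0.02. The elongation factor eEF1A (YALI0_C09141g), which brings aminoacyl-tRNA to the ribosome, had 22208 and 38413 CPM in parent cells and 32771 and 16016 CPM in sur2Δ cells, a log2 fold change of -0.31 ± 0.59. The elongation factors eEF2 (YALI0_A00352g) and eEF3, which in fungi acts in the release of spent tRNA, were at 0.02 ± 0.52 and -0.02 ± 0.51. Within the tables their log2 ratios had opposite signs, at 0.75 and 0.69 among transcripts and -0.73 and -0.69 among genes. A second eEF2 gene, YALI0_A20152g, had 18 and 3 counts in parent cells and 30 and 17 in sur2Δ cells, a log2 fold change of 1.37 ± 0.85 with an edgeR adjusted p of 0.598. The nascent chain chaperones SSB2 and ZUO1 were at -0.50 ± 0.56 and -0.27 ± 0.47. EGD2, of the complex that binds nascent peptides at the tunnel exit, was at -0.76 ± 0.46.

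Among the regulators, the relative of IFH1, a coactivator of ribosomal protein genes in S. cerevisiae, was higher in both deletion libraries. IFH1 (YALI0_E26873g) had 53.8 and 66.1 CPM in parent cells and 193 and 120 CPM in sur2Δ cells. Its log2 fold change was 1.38 ± 0.38, with an edgeR adjusted p of 0.170. With DESeq2 the adjusted p was 0.0353, and over all alternatives it ran from 0.0168 to 0.784. The groups did not overlap. The relatives of SFP1 and TBF1, transcription factors of these genes in fungi, were at -0.32 ± 0.38 and -0.01 ± 0.38, and those of the kinases SCH9 and TOR at 0.09 ± 0.35 and 0.34 ± 0.46.

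Introns were common among the ribosomal protein genes. The spliced length could be worked out from the deposited values for 72 of them, and in 46, 26 of the large and 20 of the small subunit, the annotated span was longer by at least 30 bases, an implied intron. That is 63.9%, against 16.0% of the 4925 genes with such a length. The implied introns held 70 bases, in RPL30, to 722 bases, in RPS0, with a median of 314 bases. The median log2 fold change was -1.19 for the genes with and -1.08 for the 26 genes without one, and no test was made of that difference. Across genes, Spearman's rho of the log2 fold change was 0.212 with the spliced length and 0.224 with the mean TPM.

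The genes were spread over all 6 chromosomes, with 23 on E, 21 on F, 14 on B, 12 on D, 8 on C and 5 on A. They were divided between the strands, with 44 on the plus and 39 on the minus strand. Of the 83 genes, 18 lay within 5000 bases of another, in 10 pairs, of which 6 were divergent, 3 on the same strand and 1 convergent. The divergent pairs of RPL1 with RPL33 and of RPL8 with RPL2 each have 1 other protein-coding gene between them. RPS15 and RPP2 are transcribed away from each other on chromosome F with 304 bases between them. RPS15, at -0.88 ± 0.56, was among the smaller changes of its subunit, and RPP2, at -2.10, was the largest of all. RPL39 and RPS22 diverge on chromosome D with 225 bases between them and were at -1.40 and -1.54. RPL13 and RPS16 lie 832 bases apart, at -1.18 and -1.45, and RPL30 and RPL24 lie 825 bases apart, at -1.44 and -1.14. All positions are taken from the deposited tables, for which no genome build is stated in the sources used here.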

How the data were processed

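Per the labels' protocols, libraries were made from total RNA with the TruSeq Stranded mRNA kit. The deposited counts are whole numbers of reads per transcript or per gene, per the file headers. The authors also deposited TPM, used here for levels per length and, with the counts, to work out the length each gene was divided by. A further 4 columns of library values were not used. For the aligner, counter, strand setting, genome build and annotation the entry is the same: not given in the sources used here. So reads of overlapping, antisense or near-identical genes may be shared in ways not known.

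Counts of both tables were joined by gene identifier (8381 features; 1 feature of the gene table is not used here). Column names give the strain but no replicate number. The test was that of edgeR 4.0.16 (R 4.3.3). Its filterByExpr, given the strains, kept 6051 genes, TMM factors were 0.8462 to 1.1149, and the quasi-likelihood test had strain as its only term (two-sided, Benjamini-Hochberg adjustment over all genes tested, threshold 0.05). The common dispersion was 0.1424. Each standard error is the log2 fold change over the root of its F value. CPM are counts over totals scaled by TMM. Alternatives were DESeq2 1.42.0, limma 3.58.1 on log2(TPM + pseudocount), other scalings, no filter, the table as a term, and each library left out. The fit was tested on simulated data. The spliced length was worked out for genes with at least 200 counts and an effective length of at least 100 bases, by matching that length to genes without an intron.

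The genes, the comparison lists and the roles were chosen with earlier results of these data known. For 3 genes whose text gives no subunit it was taken from the S. cerevisiae relative. Genes named by rule were, per subunit, the 5 of smallest p, the 4 highest and the lowest by mean TPM, the 3 largest and 3 smallest fold changes of at least 10 CPM, any of opposite sign to the median, genes that share a name, the stalk, the ubiquitin fusions and any that failed the filter; others were named for their role. Of these, 3 small subunit genes are counted in the totals and not reported here by name. A motif count in promoters was planned and not run here.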

Additional observations from a re-analysis of the deposited data

How the results depend on the processing

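The median log2 fold change stayed below 0 for both subunits in every setting run. Over the settings without 1 library it ran from -1.74 to -0.76 for the large and from -1.78 to -0.83 for the small subunit. Without RLP24, RSM7 and genes of effective length under 100 bases, and with RPS1 and RPS12, a choice made after seeing the data, it was -1.16 and -1.26 for 42 and 30 genes. Library totals without TMM, also chosen after seeing the data, moved the median of all genes to 0.21 and gave -0.96 and -1.03. With limma on log2(TPM + 1) the median of all genes was 0.39, and the subunits were at -0.77 and -0.83. The number of ribosomal protein genes below 0 was 80 of 82 under each edgeR scaling and 78 with limma.

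The count of ribosomal protein genes called lower was 26 with DESeq2 and 0 to 26 over the settings without 1 library; it was 0 in the other settings. Over all genes, the count called lower was 33 with the table as a term, 124 with DESeq2, 23 with limma on log2(TPM + 0.1) and 0 to 236 without 1 library (50 without the deletion library of the gene table). The count called higher was 112 with the table as a term, 99 on library totals, 262 with DESeq2, 156 and 181 with limma at pseudocounts of 1 and 0.1, and 0 to 433 without 1 library (153 without that same one).

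Direction turned for 5 named ribosomal protein genes. Without the deletion library of the gene table, RPL27 was at 0.16, RPS29 at 0.25 and RPL38 at 0.09. With limma at both pseudocounts RPS29 was at 0.07 and RPL38 at 0.06. Leaving out the deletion library of the transcript table put RLP24 at -0.76 and S25-like at -0.08. RPL27, RPS29, RPL38 and RLP24 lie on chromosome B between bases 790091 and 1522189, and the cause of these turns was not tested. Among the 12 partner genes 7 changed sign in at least 1 setting, eEF1A, eEF2 (YALI0_A00352g), eEF3, ZUO1, SFP1, TBF1 and TOR. No paired analysis was possible because the columns carry no replicate number; the fit with the table as a term blocks by table instead and gave medians of -1.19 and -1.25. With 2 libraries per strain in different tables, the spread between libraries, not the depth, sets the precision of the fold changes.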
